A study of Mus musculus with 10 samples.

Results

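Tgm2, Rprd1b and Gm20412 are 3 of the 55487 genes in the count tables, and they overlap on mouse chromosome 2. They were selected on the genotype fold changes of mammary epithelial cells (MECs), in which earlier results of these data gave them lower counts in the libraries labelled CebpbΔM. Of the 3, Gm20412 passed the threshold of that comparison, so the MEC genotype values of all 3 genes are given as a description, without a test. The question followed is how the 3 genes vary by cell type and genotype, and to which of them the overlapping reads can be assigned.

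The data are RNA sequencing counts of 10 mammary libraries, made with a DNBSEQ low-input Smart-Seq mRNA kit, from female mice aged 10 wk and staged at diestrus. WT mice were Csf1r-Cre negative and CebpbΔM mice Csf1r-Cre positive, and both genotypes carried Cebpb fl/fl alleles, so the WT mice had the floxed alleles too. The Csf1r promoter drives Cre in CSF1R-expressing myeloid cells, and the labels call the CebpbΔM samples a C/EBPb knockdown. The MEC libraries, from cells left after removal of other lineages, were WT 1 and 3 and CebpbΔM 1 and 3. The macrophage libraries, from cells selected with antibody to F4/80, were WT 4 and 5 and CebpbΔM 4, 5, 6 and 7. Nothing in the labels says that the libraries of a group came from separate animals, so the tests measure the spread between these samples, which may be technical.

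Transglutaminase 2, the product of Tgm2, is a calcium-dependent enzyme that crosslinks proteins through glutamine and lysine side chains, and it also binds GTP. At the cell surface it associates with integrins and fibronectin, retinoic acid is a known inducer of its gene, and in macrophages it takes part in the uptake of apoptotic cells. Rprd1b, also called CREPT, encodes a protein that binds the C-terminal tail of RNA polymerase II and has been linked to cyclin D1 and Wnt target genes. Gm20412 is annotated as a processed transcript with no coding bases, and no function is given for it.

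The counts of the targeted gene were low and did not separate the macrophage libraries by genotype label. Cebpb was counted 69 and 42 times in the libraries labelled MEC CebpbΔM 1 and 3, against 25 and 28 times in those labelled MEC WT 1 and 3. In macrophages it was counted 16, 13, 5 and 4 times in the libraries labelled CebpbΔM 4, 5, 6 and 7, and 13 and 15 times in those labelled WT 4 and 5. The MEC counts did not overlap and were higher in the libraries labelled CebpbΔM, and the macrophage counts of both labels overlapped. Cre is directed to myeloid cells, so the labels predict no lower Cebpb count in MECs. The macrophage counts of 5 and 4 were close to the count of 3 taken below as the floor. Of its 1504 exon bases, 312 lie opposite an exon of Tmem189. Each genotype direction below is therefore that of the libraries as labelled.

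The total count was between 16935000 and 27008166 per library. Levels are given as CPM, counts scaled to the library total, with the library totals adjusted over all 10 libraries by the TMM method of edgeR. A count of 3 in a library, taken as the floor, corresponded to between 0.111 and 0.177 CPM, which covers counting error only. The summed level of 10 epithelial markers was 32108 to 39515 CPM in the MEC libraries and 5683 to 10177 CPM in the macrophage libraries. The summed level of 10 macrophage markers was 229 to 423 CPM in MECs and 8446 to 15616 CPM in macrophages. No epithelial marker was at 0 counts in any macrophage library, and of the macrophage markers Adgre1, which encodes F4/80, was at 0 counts in both MEC CebpbΔM libraries.

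The position of the exons decides what a count of each gene can mean. On GRCm38, Tgm2 (ENSMUSG00000037820) lies on the minus strand at chr2:158116402-158146436 and has 4608 exon bases. Rprd1b (ENSMUSG00000027651) lies on the plus strand at chr2:158028497-158132297 and has 6499 exon bases. Gm20412 (ENSMUSG00000092283) lies on the plus strand at chr2:158117154-158117905, with 2 exons and 633 exon bases. All 633 of these bases lie opposite exon 13 of Tgm2-201, its last exon, and 102 of them lie opposite its coding bases, with the other 531 opposite its stop codon and 3′ untranslated region. None of the 3 genes shares an exon base with another gene on its own strand. The span of Gm20412 falls inside that of Rprd1b, but within an intron, so the exons of these plus-strand genes are distinct.

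Rprd1b reaches Tgm2 through 1 of its 8 annotated transcripts. The last exon of Rprd1b-207, exon 6, lies at chr2:158131139-158132297, is 1159 bases long and shares 0 bases with the other Rprd1b transcripts. It begins 52931 bases past the end of all other Rprd1b transcripts. Of its bases, 370 lie opposite Tgm2 exons, and 178 of those are opposite coding bases in exon 6 of Tgm2-201. A further 130 bases of Rprd1b lie opposite 2010009K17Rik. Opposite-strand overlap thus covers 7.69% of the Rprd1b exon bases, 21.8% of those of Tgm2 and 100% of those of Gm20412.

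**Figure D1:**
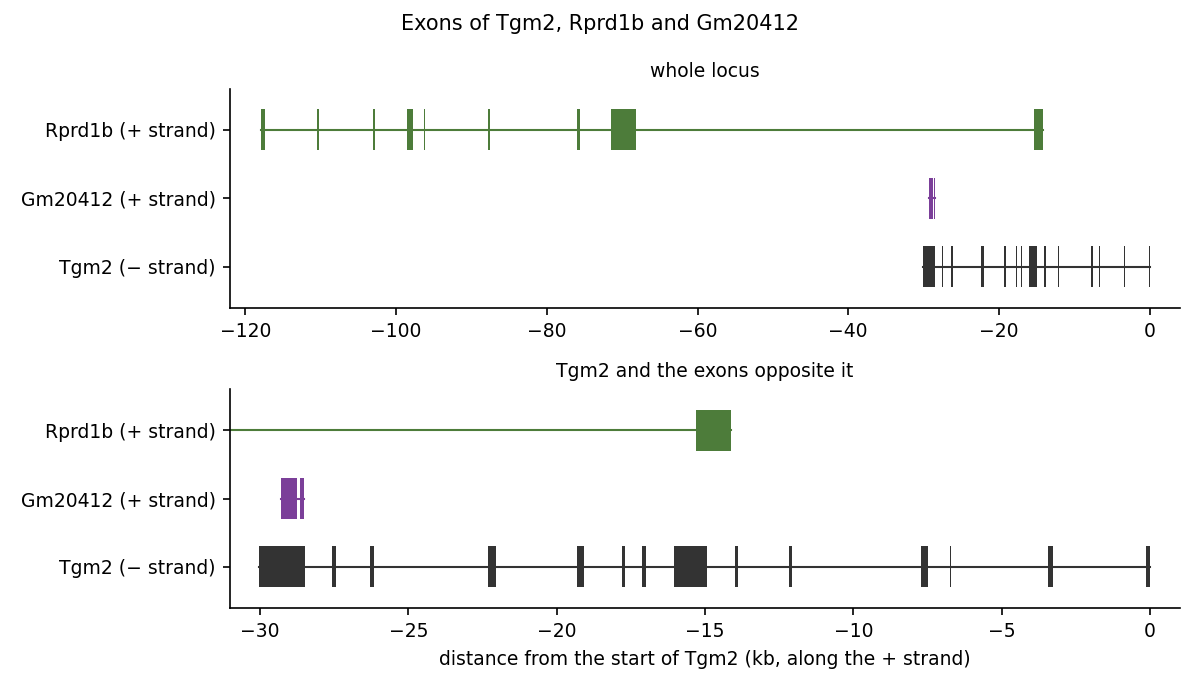
Exons (boxes) and spans (lines) of Rprd1b, Gm20412 and Tgm2 against the distance from the start of Tgm2 in kb along the plus strand, for the whole locus (top) and for Tgm2 alone (bottom). Both exons of Gm20412 lie over the last exon of Tgm2, and 1 distant exon of Rprd1b lies over a middle Tgm2 exon.

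The stretch where Gm20412 lies opposite the coding end of Tgm2 shows why the strand of a read matters at this locus. Below are the 102 bases at chr2:158117804-158117905 (GRCm38), from the GENCODE transcripts of the genes, each 5′ to 3′ on its own strand. Capitals mark the last coding codon of Tgm2 and its complement in Gm20412.
Tgm2: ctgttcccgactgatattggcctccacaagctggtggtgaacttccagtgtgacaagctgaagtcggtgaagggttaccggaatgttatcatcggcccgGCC
Gm20412: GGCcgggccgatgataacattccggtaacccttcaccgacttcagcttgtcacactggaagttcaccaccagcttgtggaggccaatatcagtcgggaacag
The sequences are reverse complements at 102 of 102 bases, so read bases within this stretch fit both genes equally and only their strand differs. Full reads of 150 bp extend past the stretch, where the annotated transcripts of the genes can differ. The authors counted read pairs as reverse-stranded, and whether the library kit keeps the strand is not given in the sources used here. The annotated intron of Gm20412 (chr2:158117675-158117793, 119 bases) offers a strand-specific feature, because spliced reads of Gm20412 would lack it while Tgm2 reads would cross it. Its junctions read tacactGTcttc and gggaAGgggtcc on the plus strand, where capitals mark the first and last bases of the intron, GT and AG. Read on the minus strand, the same intron would begin with CT and end with AC. Gene-level counts do not hold reads that span this intron separately, so the use of this junction was not analysed here.

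Gm20412 followed Tgm2 at a nearly fixed share. Its count was 28.0% and 28.2% of the Tgm2 count in MEC CebpbΔM 1 and 3, and 28.3% and 29.3% in MEC WT 1 and 3. In macrophages the share was 29.8%, 30.4%, 30.1% and 28.6% in CebpbΔM 4, 5, 6 and 7, and 29.7% and 30.2% in WT 4 and 5. The highest share was 1.09 times the lowest over the 10 libraries, while the Tgm2 count itself spanned 11.8-fold. The shares of the genotypes overlapped in macrophages, and in MECs those of WT lay just above those of CebpbΔM. Per exon base, the count of Gm20412 was 2.04 to 2.22 times that of Tgm2 in every library. This ratio sets a part against a whole, because Gm20412 lies opposite only the last Tgm2 exon, of 1550 bases. The Tgm2 count is averaged over 4608 exon bases, merged from its 4 annotated transcripts. Coverage along Tgm2 was not examined, so the ratio does not show which gene was expressed more.

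Rprd1b followed Tgm2 less closely. Its count was 19.5% and 17.8% of the Tgm2 count in MEC CebpbΔM 1 and 3, and 16.8% and 15.8% in MEC WT 1 and 3. In macrophages it was 23.5%, 21.6%, 18.7% and 17.4% in CebpbΔM 4, 5, 6 and 7, and 19.4% and 17.4% in WT 4 and 5. The share was highest where Tgm2 was lowest. A straight line of the Rprd1b level on the Tgm2 level over the 10 libraries rose by 15.7 CPM per 100 CPM of Tgm2 from an intercept of 29.3 CPM, and the largest departure from it was 27.6 CPM. Within MECs the line rose by 15.9 CPM per 100 CPM of Tgm2 (4 libraries), and within macrophages by 15.3 CPM (6 libraries). The corresponding slope of Gm20412 over all libraries was 28.4 CPM per 100 CPM of Tgm2, from an intercept of 9.95 CPM. These lines are descriptions, because the genes share libraries and overlapping exons. The exon bases that Rprd1b has opposite Tgm2 amount to 8.03% of the Tgm2 exon bases, and a gene-level count cannot be divided between that exon and the rest of Rprd1b.

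**Figure D2:**
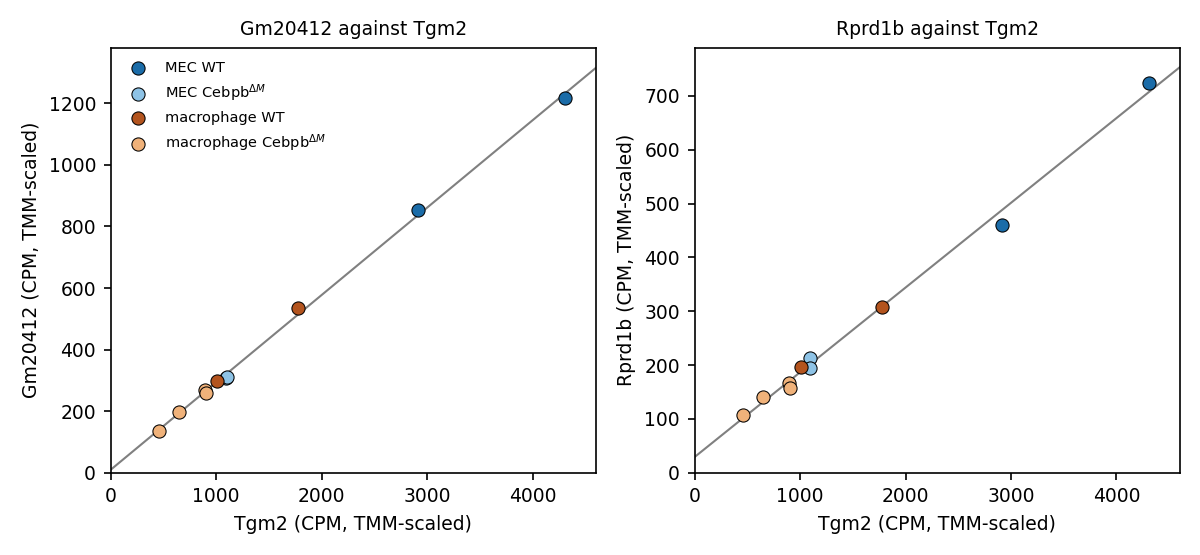
Level of Gm20412 (left) and Rprd1b (right) against that of Tgm2, all in TMM-scaled CPM, with 1 point per library colored by group and the straight line over 10 libraries in grey. Gm20412 lies along a line with a slope of 28.4 CPM per 100 CPM of Tgm2, and Rprd1b along a line with a slope of 15.7 CPM per 100.

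The nearly fixed share was set beside other genes with at least 90% of their exon bases opposite the exons of a single partner, where the partner had at least 10 counts per kb. Depending on the library, 153 to 166 other genes met this. Their median count per exon base was 1.29 to 1.62 times that of the partner, and 71.9% to 79.6% of them had more than 0.5 times the density of the partner. Of these genes, 60.6% to 64.4% had a lower ratio than Gm20412. The density of Gm20412 relative to its partner was therefore above the median and inside the range of such genes. With the median taken over libraries for each of 187 such genes, Gm20412 was at 2.15, while 33 genes were below 0.25 and 10 above 6.

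The fold changes between genotypes were also compared within such pairs. Across 115 other pairs tested in MECs, Pearson's r between the log2 fold changes of nested gene and partner was 0.69, and across 124 pairs in macrophages it was 0.73. These are correlations across genes that share libraries and positions, and such genes are not independent replicates. The log2 fold changes of nested gene and partner differed by a median of 0.12 in MECs and 0.17 in macrophages, and those of Gm20412 and Tgm2 by 0.03 and 0.02. Among 117 other nested genes with a ratio above 0 in every library, 3 had a smaller SD of the log2 ratio over libraries than Gm20412 (0.05), and the median SD was 0.25. Counting precision differs between these genes, and its part in their SD was not tested.

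**Figure D3:**
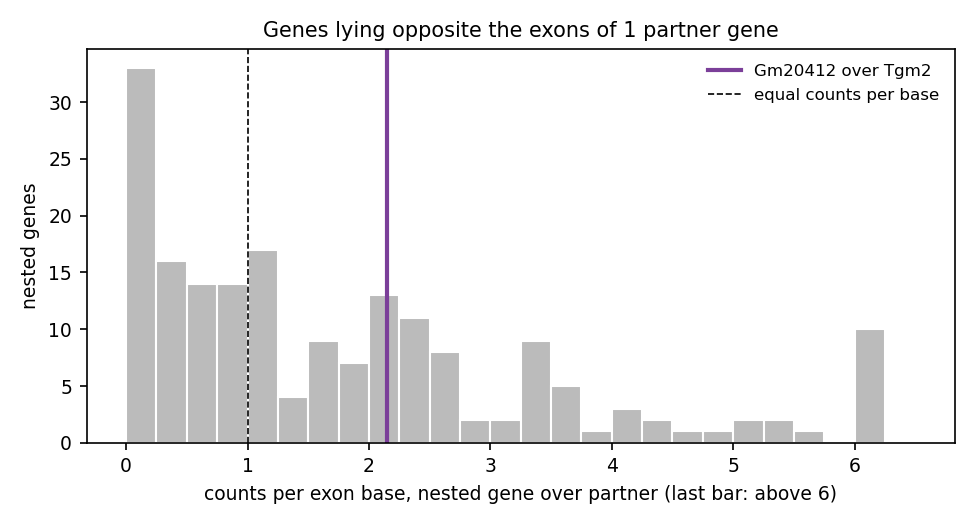
Number of nested genes (y axis) by their counts per exon base relative to the partner gene on the opposite strand (x axis, median over libraries), for 187 genes. Gm20412 (purple line) lies at 2.15, above equal density (dashed line) and inside the spread of the other genes.

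In MECs, Tgm2 was lower in the libraries labelled CebpbΔM. Its level was 1093 and 1099 CPM in CebpbΔM 1 and 3, and 4306 and 2913 CPM in WT 1 and 3. The CebpbΔM libraries lay close together, the WT libraries were spread, and the genotypes did not overlap. The group levels were 1096 ± 4.0 CPM and 3609 ± 985 CPM (SD, n = 2 each), a log2 fold change of -1.70 (SE 0.27). Per kb of exon, Tgm2 ranked 50th of 18323 genes in WT MECs and 229th in CebpbΔM MECs.

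Rprd1b stood at 213 and 195 CPM in CebpbΔM 1 and 3, and at 724 and 460 CPM in WT 1 and 3 of the MECs, a log2 fold change of -1.51 (SE 0.25). For Gm20412 the levels were 306 and 310 CPM in CebpbΔM 1 and 3, and 1217 and 854 CPM in WT 1 and 3, a log2 fold change of -1.73 (SE 0.25). For both genes, too, the genotypes did not overlap, and WT 1 was the highest library. Of 15698 genes tested in MECs, 0.0510% passed the threshold in either direction by edgeR's quasi-likelihood test (adjusted P of 0.05 or less, with Benjamini–Hochberg adjustment over all genes), and 13.3% were lower in CebpbΔM without overlap. Because this comparison chose the members, nothing is read from these shares. The WT to CebpbΔM difference of Rprd1b was 388 CPM, or 15.4% of the 2513 CPM difference of Tgm2, and that of Gm20412 was 727 CPM, or 28.9%. Without WT 1 the log2 fold changes were -1.40, -1.16 and -1.46 for Tgm2, Rprd1b and Gm20412. Beside these levels, the summed epithelial markers were 39261 and 32108 CPM in CebpbΔM 1 and 3 and 32573 and 39515 CPM in WT 1 and 3, so the genotypes overlapped, as they did for the summed macrophage markers (423 and 229 CPM against 315 and 384 CPM). Of the other 6 marker lists, 2 did not overlap between the genotypes in MECs. The 4 red cell markers summed to 135 and 58.1 CPM in CebpbΔM 1 and 3 and to 28.9 and 33.6 CPM in WT 1 and 3. The 6 T and B lymphocyte markers summed to 2.11 and 1.86 CPM in CebpbΔM 1 and 3 and to 1.34 and 0.975 CPM in WT 1 and 3, with 3 or 4 of them at 0 counts in each library. Both lists were higher in CebpbΔM, none of their tested genes passed the test, and their part in the Tgm2 levels was not tested.

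The macrophage libraries did not choose the members, and there the same comparison was tested. Tgm2 was at 460, 649, 895 and 908 CPM in CebpbΔM 4, 5, 6 and 7, and at 1009 and 1774 CPM in WT 4 and 5. All CebpbΔM libraries lay below both WT libraries, with WT 4 close above the highest of them and WT 5 far above. The log2 fold change was -0.96 (SE 0.31), which did not pass the quasi-likelihood test (adjusted P = 0.517, unadjusted P = 0.0145).

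Rprd1b was at 108, 140, 167 and 158 CPM in CebpbΔM 4, 5, 6 and 7, and at 196 and 308 CPM in WT 4 and 5, a log2 fold change of -0.84 (SE 0.24, quasi-likelihood adjusted P = 0.480). Gm20412 was at 137, 197, 270 and 260 CPM in CebpbΔM 4, 5, 6 and 7, and at 299 and 536 CPM in WT 4 and 5, a log2 fold change of -0.98 (SE 0.31, quasi-likelihood adjusted P = 0.513). The genotypes did not overlap for any of the 3 genes, as for 9.08% of the 17772 genes tested, counted in the same direction. The quasi-likelihood test called 0 of these genes, which is 0%, with 1534 at an unadjusted P under 0.05, while edgeR's likelihood ratio test called 138 and DESeq2 201. None of the 3 genes was among the calls of either tool, with an adjusted P of 0.190, 0.116 and 0.166 by the likelihood ratio test and 0.131, 0.0766 and 0.123 by DESeq2 for Tgm2, Rprd1b and Gm20412. The library WT 5 moved these values by more than 1.5 times, since without it the log2 fold changes were -0.49, -0.47 and -0.49.

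Other markers moved beside these levels in macrophages. The summed epithelial markers were 5683 to 7384 CPM in the 4 CebpbΔM libraries and 9952 and 10177 CPM in the WT libraries, with a mean in CebpbΔM at 64.0% of that in WT. For Tgm2 the corresponding mean was 52.3%, for Rprd1b 56.9% and for Gm20412 51.7%. Of the 10 epithelial markers 8 had a log2 fold change below 0 and 2 above 0, over a range of -0.89 to 1.53. None of the 10 passed the test, and none was at 0 counts in any library. The summed macrophage markers were 10484 to 15616 CPM in CebpbΔM and 8446 and 9458 CPM in WT, and all 10 had a log2 fold change above 0. The 6 T and B lymphocyte markers summed to 10.96 to 23.0 CPM in CebpbΔM and to 4.86 and 9.93 CPM in WT, also without overlap, with a log2 fold change above 0 for all 3 that were tested and none past the test. The part of these markers in the Tgm2 levels was not tested. In bulk samples, fewer cells of a type and less RNA per cell cannot be told apart. Fibroblast markers summed to 3517 to 8024 CPM in CebpbΔM and 7020 to 7389 CPM in WT, and endothelial markers to 1534 to 3293 CPM and 2230 to 2522 CPM, so these overlapped, as did the pericyte and smooth muscle, adipocyte and red cell lists.

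**Figure D4:**
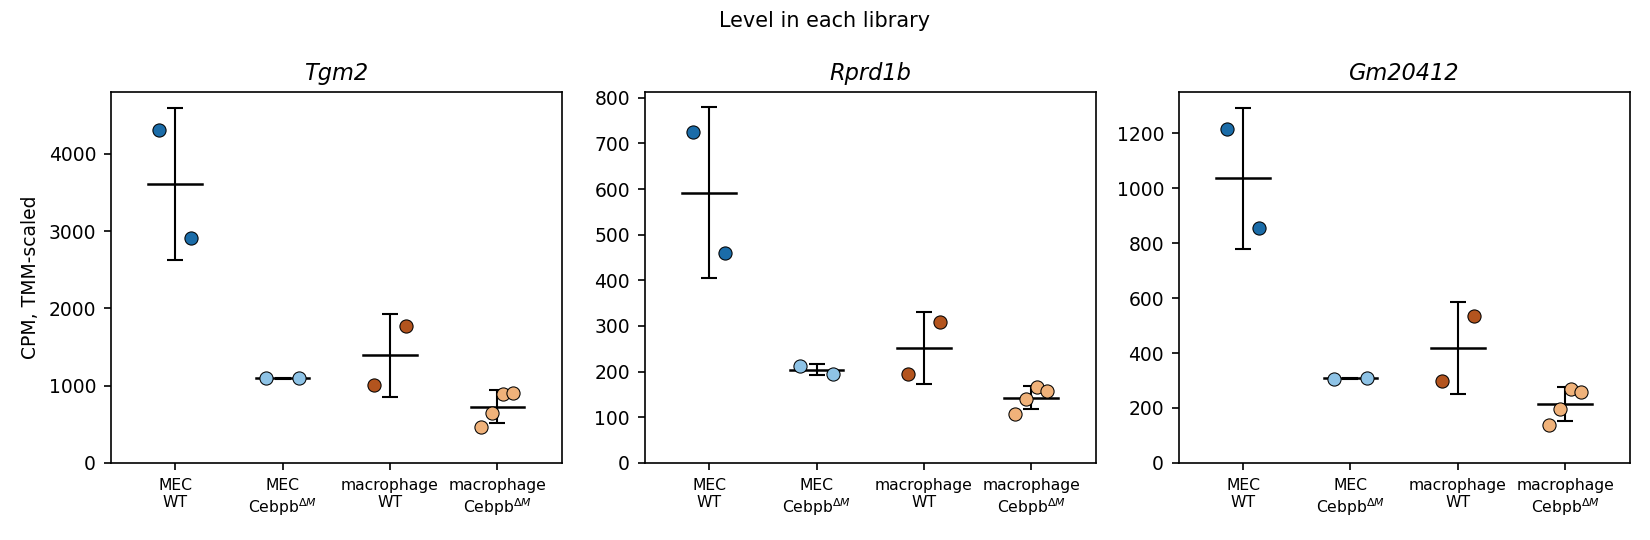
Level of Tgm2, Rprd1b and Gm20412 in TMM-scaled CPM (y axis, from 0) for each library (points), with group means (lines) and SD (bars), in MECs (n = 2 per genotype) and macrophages (2 WT, 4 CebpbΔM). In both cell types every CebpbΔM library lies below every WT library for each gene.

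Between cell types, all 3 genes were lower in macrophages than in MECs among the WT libraries. The contrast came from a fit of all 10 libraries over 18323 genes, of which the quasi-likelihood test called 10.7% lower and 14.8% higher in macrophages. Tgm2 had a log2 fold change of -1.38 (SE 0.36, adjusted P = 0.0172), Rprd1b of -1.23 (SE 0.29, adjusted P = 0.0109) and Gm20412 of -1.31 (SE 0.35, adjusted P = 0.0199). Both MEC WT libraries were above both macrophage WT libraries for each gene, as for 31.3% of all genes tested, counted in that direction. Without MEC WT 1 the adjusted P rose to 0.121, 0.102 and 0.130, and without macrophage WT 4 to 0.112, 0.0793 and 0.123, for Tgm2, Rprd1b and Gm20412. The cell types were isolated in different ways and counted in separate tables, which cannot be told apart from the cell type itself. The mean Tgm2 level of WT macrophages was 38.5% of that of WT MECs, and that of the summed epithelial markers 27.9%. The other marker lists went the other way. The macrophage, endothelial, fibroblast, and pericyte and smooth muscle markers were at 2563%, 1305%, 114% and 401%. The adipocyte, T and B lymphocyte and red cell markers were at 1565%, 640% and 190%. The part of any of these in the Tgm2 level was not tested.

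Over the 4 groups, Tgm2 was highest in WT MECs, followed by WT macrophages (1391 ± 541 CPM, SD, n = 2), CebpbΔM MECs and CebpbΔM macrophages (728 ± 215 CPM, SD, n = 4). The WT macrophages and CebpbΔM MECs did not differ beyond their spread, since the former held the latter within their range. Rprd1b and Gm20412 had the same order. Per kb of exon, the order of the genes was Gm20412, Tgm2, Rprd1b in every group. The limit given above for the density of Gm20412 beside Tgm2 applies to this order too. In WT MECs these levels were 1636 ± 406, 783 ± 214 and 91.1 ± 28.7 CPM per kb (SD, n = 2), and in CebpbΔM macrophages 341 ± 97.3, 158 ± 46.6 and 22.0 ± 3.99 CPM per kb (SD, n = 4). Per kb, Tgm2 ranked 116th of 18323 genes in WT macrophages, and Rprd1b 664th in WT MECs and 1313th in WT macrophages.

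None of the neighbours of the locus passed the test in either genotype comparison. Of all genes tested, 0.0510% passed in MECs and 0 of 17772 in macrophages, where the 3 genes did not pass either. The lack of calls therefore does not set the neighbours apart from the locus. Besides the 3 genes, 18 genes lie within 250 kb, of which 7 were tested. Their log2 fold changes in MECs lay between -0.22 and 0.19 with a median of 0.09. In macrophages they lay between -0.59 and 0.74 with a median of -0.24, with 6 of 7 below 0. The nearest neighbour on the side of Rprd1b is Tti1, which encodes a protein that helps to assemble kinases such as mTOR, at chr2:157981803-158028433. Its log2 fold change was -0.01 (SE 0.24) in MECs and -0.28 (SE 0.23) in macrophages. On the side of Tgm2 the nearest is D630003M21Rik, 36.1 kb away, with a log2 fold change of -0.22 (SE 0.39) in MECs and 0.74 (SE 1.25) in macrophages at a mean of 1.05 to 3.69 CPM per group. Between cell types 1 neighbour was called, the small nucleolar RNA host gene Snhg17, which was lower in WT macrophages with a log2 fold change of -1.44 (SE 0.35, quasi-likelihood adjusted P = 0.0123). The gene 2010009K17Rik, which lies inside Rprd1b on the opposite strand, was at 0.320 to 0.709 CPM per group and was not tested.

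**Figure D5:**
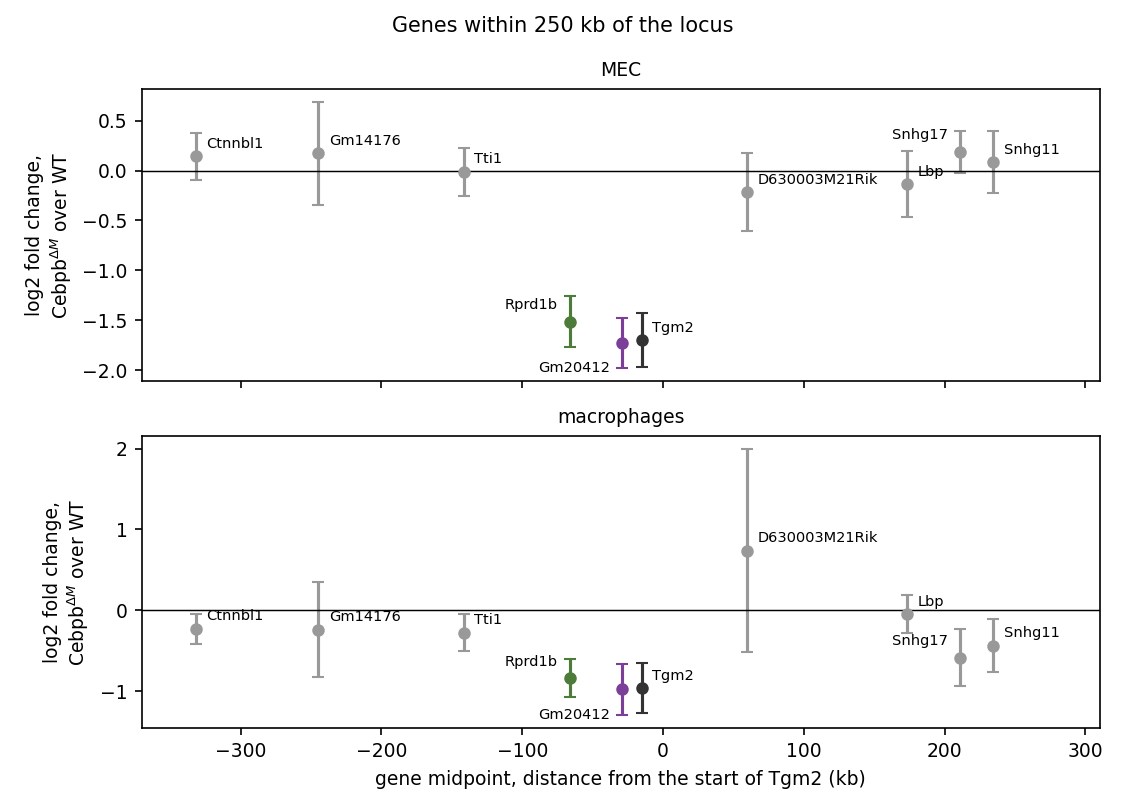
Log2 fold change of CebpbΔM over WT (y axis, bars show SE) of each tested gene within 250 kb against the distance of its midpoint from the start of Tgm2 (x axis, kb), in MECs (top) and macrophages (bottom). In MECs the 7 neighbours lie between -0.22 and 0.19 and the 3 genes of the locus between -1.73 and -1.51. The 3 genes were selected on this MEC contrast, so their distance from the neighbours there was given in advance. In macrophages the neighbours lie between -0.59 and 0.74, with 6 of 7 below 0, and the 3 genes between -0.98 and -0.84.

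Genes of the same family and pathways were listed to place the 3 genes. In both genotype comparisons, none of the other listed genes passed the test. Of all genes tested, 0.0510% passed in MECs and 0 of 17772 in macrophages, so the lack of calls does not set these lists apart. The 3 genes did not pass in macrophages either. Of each list the genes with the highest mean CPM in the cell type are named, up to 3, without a correction for length. The transglutaminase family had 8 other members, of which 2 were tested in MECs and 4 in macrophages. In MECs, Tgm1, the keratinocyte transglutaminase, had a log2 fold change of -0.45 (SE 0.21) at 127 ± 13.8 CPM in WT (SD, n = 2), and Tgm4, the prostate enzyme, of 0.12 (SE 0.40). Tgm5, the next by level, was at 0.871 CPM in WT MECs and was not tested. In macrophages F13a1, the A subunit of coagulation factor XIII, was at 948 ± 452 CPM in WT (SD, n = 2) and 1469 ± 367 CPM in CebpbΔM (SD, n = 4), a log2 fold change of 0.61 (SE 0.32). Tgm1 and Tgm4 had log2 fold changes of -0.37 (SE 0.33) and -0.37 (SE 0.32) there. The median over the 4 was -0.37, beside 0.00 for all genes tested.

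Between cell types, 2 of the 4 tested family members passed the test, in opposite directions. The shares over all genes tested were 14.8% higher and 10.7% lower in WT macrophages. F13a1 was higher in WT macrophages, with a log2 fold change of 11.04 (SE 0.66, quasi-likelihood adjusted P = 1.36e-06), and Tgm1 was lower, with -2.16 (SE 0.34, quasi-likelihood adjusted P = 0.00108). Tgm4 did not pass (0.84, SE 0.42). F13a1 was at 0.445 CPM in WT MECs.

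The partners and substrates of transglutaminase 2 at the cell surface were 11 genes, all tested. Their median log2 fold change in MECs was -0.13, with 8 of 11 below 0, and in macrophages -0.19, also with 8 of 11 below 0, beside -0.01 and 0.00 for all genes. The first by CPM in MECs were Sdc4, a heparan sulfate proteoglycan (log2 fold change -0.07, SE 0.24), Mfge8, which bridges apoptotic cells to integrins (-0.16, SE 0.30), and the integrin subunit Itgb1 (0.31, SE 0.21). In macrophages they were Sdc4 (-0.25, SE 0.15), Mfge8 (0.17, SE 0.21) and Fn1, encoding fibronectin (-0.15, SE 0.22). Between cell types 3 were higher in WT macrophages, Fn1 (3.43, SE 0.31), Itgb3 (1.70, SE 0.40) and Itga5 (0.89, SE 0.26), and 2 were lower, Sdc4 (-1.67, SE 0.18) and Mfge8 (-1.90, SE 0.32). Beside these calls, 14.8% of all genes tested were higher and 10.7% lower in WT macrophages. Tgm2, Sdc4 and Mfge8 were thus lower in macrophages than in MECs, and Fn1, Itgb3 and Itga5 were higher.

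Of 12 apoptotic cell uptake genes, 9 were tested in MECs, where the median log2 fold change was -0.01, and 12 in macrophages, where it was 0.08. In macrophages the first by CPM were the scavenger receptor Cd36 (0.07, SE 0.36), Mfge8 and Gas6, a bridging ligand of the receptors Mertk and Axl (0.44, SE 0.23). In MECs they were Mfge8, Gas6 (0.23, SE 0.23) and the receptor Lrp1 (-0.39, SE 0.26). Between cell types 8 of 12 were higher in WT macrophages and 1, Mfge8, was lower, so 8 of 12 differed in the direction opposite to Tgm2.

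The retinoid pathway list held 13 genes, of which 12 were tested in MECs (median log2 fold change -0.10) and 13 in macrophages (0.03). Their log2 fold changes lay between -0.36 and 0.28 in MECs. In macrophages the range was wide, from -1.13 to 2.62, with 7 above 0 and 6 below. The first by CPM in MECs were Aldh1a3, which makes retinoic acid (-0.11, SE 0.23), and Dhrs3, a retinal reductase (0.07, SE 0.25). In macrophages they were Dhrs3 (-0.00, SE 0.36) and the retinoic acid receptor Rarg (0.12, SE 0.19). Between cell types Aldh1a3 (-3.68, SE 0.27) and Rarg (-0.74, SE 0.25) were lower and Dhrs3 (1.77, SE 0.42) was higher in WT macrophages. The test called 1 of the 13 genes higher and 2 lower, beside 14.8% and 10.7% of all genes tested.

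For Rprd1b, the list of genes that bind or dephosphorylate the tail of RNA polymerase II had 11 other members, all tested. Their median log2 fold change was -0.17 in MECs, with a range of -0.37 to 0.58, and 0.10 in macrophages, with a range of -0.35 to 0.43. The first by CPM in MECs were the phosphatases Ssu72 (0.02, SE 0.20) and Ctdsp2 (-0.37, SE 0.22) and the tail-binding Scaf8 (0.05, SE 0.28). In macrophages they were Ctdsp2 (-0.30, SE 0.17), Ssu72 (0.12, SE 0.16) and the termination factor Pcf11 (-0.01, SE 0.16). Between cell types 2 were higher in WT macrophages, Ctdsp1 (0.71, SE 0.20) and Pcf11 (0.61, SE 0.20), and none was lower. The shares over all genes were 14.8% higher and 10.7% lower. 

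The cyclin and Wnt genes linked to Rprd1b were 6, of which 4 were tested in MECs and 5 in macrophages. In MECs, Myc (0.02, SE 0.27), Ctnnb1, encoding β-catenin (0.32, SE 0.20), and the Wnt transcription factor Tcf7l2 (-0.08, SE 0.27) came first by CPM. In macrophages the same genes had log2 fold changes of -0.01 (SE 0.22), -0.03 (SE 0.19) and 0.08 (SE 0.25). Between cell types none of 5 passed the test, and Myc had a log2 fold change of -0.88 (SE 0.30, quasi-likelihood adjusted P = 0.0514).

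The genes most like Tgm2 were sought by Pearson's r of log2 CPM over the 10 libraries, after the mean of each cell type was subtracted, among 18322 genes. Gm20412 came first (r = 0.999) and Rprd1b next (r = 0.99), and both have exon bases opposite exons of Tgm2. Of the other genes, Qsox1, which encodes a sulfhydryl oxidase (r = 0.93), 4930597O21Rik (0.93), Rad51d, a DNA repair gene (0.91), Adcy4, encoding an adenylate cyclase (0.91), and Pcdhga7, a protocadherin (0.91), were the closest. None of the 5 lies on chromosome 2. The step from Rprd1b to the next gene was from 0.99 to 0.93. Tgm2, Rprd1b and Gm20412 were selected on their MEC genotype fold changes, and subtracting the cell type means keeps that contrast. A high r between them was therefore partly given in advance, so the step does not set them apart from other genes. Qsox1 was at 409 and 264 CPM in WT and CebpbΔM MECs and at 298 and 233 CPM in WT and CebpbΔM macrophages, a narrower range than that of Tgm2. The points share libraries, depth and genotype, and these values are a description.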

How the data were processed

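RNA from 4 MEC and 6 macrophage libraries was sequenced with paired-end reads of 150 bp. The authors trimmed the reads (Trimmomatic), mapped them to GRCm38 (HISAT2) and, per the file headers, counted read pairs on Ensembl release 100 genes with featureCounts 1.6.2 in its reverse-stranded mode, keeping pairs whose ends both mapped and whose mapping quality reached 10. The deposited tables hold these raw counts of each gene.

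A gene entered a fit if it had 300 nt or more and exceeded 1 CPM in 2 or more of its libraries. Counts were fitted with edgeR 4.0.16 in R 4.3.3 (TMM, quasi-likelihood test, Benjamini–Hochberg adjustment over all genes, threshold 0.05), in place of the likelihood ratio test of the study, run as an alternative with DESeq2 1.42.0, relative log expression scaling, no filter, a replicate block and each library left out. The MEC and macrophage genotype comparisons were fitted separately, and the cell type comparison over all 10 libraries. Log2 CPM used a prior count of 2. Exon overlaps came from the count tables, and transcripts and sequences from GENCODE M21, in which 55141 of 55487 genes had a symbol.

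The members and lists were chosen with earlier results of these data known. Named were the 3 members, tested neighbours past the test or nearest on each side within 250 kb, the 3 most abundant members of each of 6 lists in each cell type, and the 5 genes most like Tgm2. A gene that this rule names in the retinoid pathway list is not reported here. The libraries numbered 2 that the MEC file header names were not analysed here. Comparisons of nested genes with their partners and the lines on Tgm2 were added after the data were seen. Tables and plots used Python 3.11.15, pandas 2.3.3, numpy 2.4.6 and matplotlib 3.10.9.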

Additional observations from a re-analysis of the deposited data

Results flagged for a closer look

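In the group of 4 macrophage CebpbΔM libraries, 36 values (levels, ratios and marker sums) were checked for a library far from the others by Dixon's ratio, and chance flags about 1 in 20. None of the levels or ratios of Tgm2, Rprd1b and Gm20412 was among the 2 flagged. The summed adipocyte markers were 26.8 CPM in CebpbΔM 6, against 9.64 to 11.5 CPM in the other libraries, while Tgm2 was at 895 CPM there and at 908 CPM in CebpbΔM 7. Ssu72 was at 97.5 CPM in CebpbΔM 7, against 83.3 to 83.6 CPM in the others.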

How the results depend on the processing

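In MECs the number of genes called was 8, and it was 179 by the likelihood ratio test, 161 by DESeq2, 38 without the filter and 205 with a replicate block, and it ranged from 2 to 337 as libraries were left out (2 without WT 3, 42 without CebpbΔM 1, 98 without WT 1 and 337 without CebpbΔM 3). The macrophage count of 0 became 138 by the likelihood ratio test, 201 by DESeq2 and 12 with the replicate block, and it was 0 with each library left out. The cell type count of 4664 was 2456 without MEC WT 3, 2733 without MEC WT 1 and 3041 without macrophage WT 5, and at most 4846 with a library left out. No member changed sign in any setting. In macrophages the members were not called in any of 12 settings, with log2 fold changes of Tgm2 between -1.34 and -0.49. The labels do not say whether the replicate numbers pair the samples. Same-numbered libraries deviated together with r = 0.11 in MECs, where 2 libraries per genotype give the same value for both numbers. In macrophages r was 0.13 for replicate 4 and -0.09 for replicate 5. Weak correlations over all genes cannot decide whether the samples were paired. With the block, the macrophage quasi-likelihood adjusted P was 0.0510, 0.130 and 0.0592 for Tgm2, Rprd1b and Gm20412, against 0.517, 0.480 and 0.513 without it. The log2 fold change of Tgm2 was -1.32 (SE 0.16) with the block and -0.96 (SE 0.31) without it. With replicates 4 and 5 alone and no block it was -1.34 (SE 0.30). The blocked and unblocked fits thus use different libraries, and their P values do not compare precision over the same ones. A partner minimum of 100 in place of 10 counts per kb moved the median ratio of nested genes from 1.49 to 1.55. The medians of the libraries were then 1.39 to 1.94. Gene-level counts limit what can be said of the strand, and 2 libraries in each group but macrophage CebpbΔM, which has 4, limit the error estimates.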
